A study of Rattus norvegicus with 6 samples.

Results

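Purinergic receptors sense ATP, ADP and adenosine outside the cell, and 10 of their genes were followed here in the prelimbic cortex (PL) of rats with spared nerve injury (SNI). They are the P2X channels P2rx2, P2rx3, P2rx4, P2rx5, P2rx6 and P2rx7, the ADP receptor P2ry1 and the adenosine receptors Adora1, Adora2a and Adora2b. Members were all probe sets whose only gene symbol in the platform annotation was one of these, which gave 16 probe sets for the 10 genes, out of 31042 probe sets and 14217 genes in all. None was left out for carrying several symbols. RNA came from the PL opposite to the operated leg, taken 14 days after surgery from male Sprague-Dawley rats that were 6 to 7 weeks old when acquired. In the SNI group (3 samples) the tibial and common peroneal nerves of the left leg were cut and the sural nerve was spared. In the control group (3 samples) the nerves were laid bare and left whole. For the anesthetic of this surgery the sample labels name isoflurane and the study's methods pentobarbital. The sources do not say whether the samples of a group are separate rats, and each p-value rests on the spread of these 6 samples alone, part of which may be technical.

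P2X receptors are cation channels that open when ATP binds, while P2Y and adenosine receptors act through G proteins. ATP is released by neurons and glia and is broken down outside the cell, by way of ADP and AMP, to adenosine, so that these receptors read successive ligands of 1 chain. In the cortex the receptor encoded by Adora1 is widely present on neurons, couples to inhibitory G proteins and damps transmitter release, while P2rx4 and P2rx7 are best known from microglia.

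Each value below is a log2 signal of the Affymetrix array set to a median of 0 over the 6 samples for its probe set, as the values were deposited. Differences between groups can be read from such values. The level of a receptor, the order of the receptors by level and the presence or absence of a cell type's defining markers cannot. Over the whole array 10 probe sets passed an adjusted p of 0.05 in limma (0.0322%), and 13.1% had an unadjusted p under 0.05. On the first principal component control samples 1 and 3 lay far from the rest, at 21.9 and 16.04, where the SNI samples spanned −11.3 to −9.81 and control sample 2 was at −6.18. The mean of the hybridization controls, added transcripts that are not of the rat, ranged over 0.054 to 0.19 in the SNI samples and −0.22 to −0.047 in the control samples.

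No receptor passed adjustment over all probe sets or over all genes, and Adora1 was the only one with an unadjusted p under 0.05. It lay lower in the SNI group, on 1 of its 2 probe sets. Of the 16 member probe sets 1 had an unadjusted p under 0.05 (6.25%), beside 13.1% of all probe sets. This 1 was lower in the SNI group (7.47% of all probe sets were) and 0 were higher (5.6%). It was also the only member with an unadjusted p under 0.01 (4.56%) or an adjusted p under 0.10 (0.689%). With a linear fold above 1.5 in addition the count was 0 of 16 (0.364% of all). The groups did not overlap on 1 of the 16, beside 19.6% of all probe sets, with SNI below on 1 (11.2%) and above on 0 (8.35%). Among the 10 gene means 1 had an unadjusted p under 0.05 (13.2% of all genes), and 1 had groups that did not overlap (20.1%). The differences of the 16 probe sets had a median size of 0.044 on the log2 scale, beside 0.076 over all probe sets, and 8 of them were above 0.

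**Figure D1:**
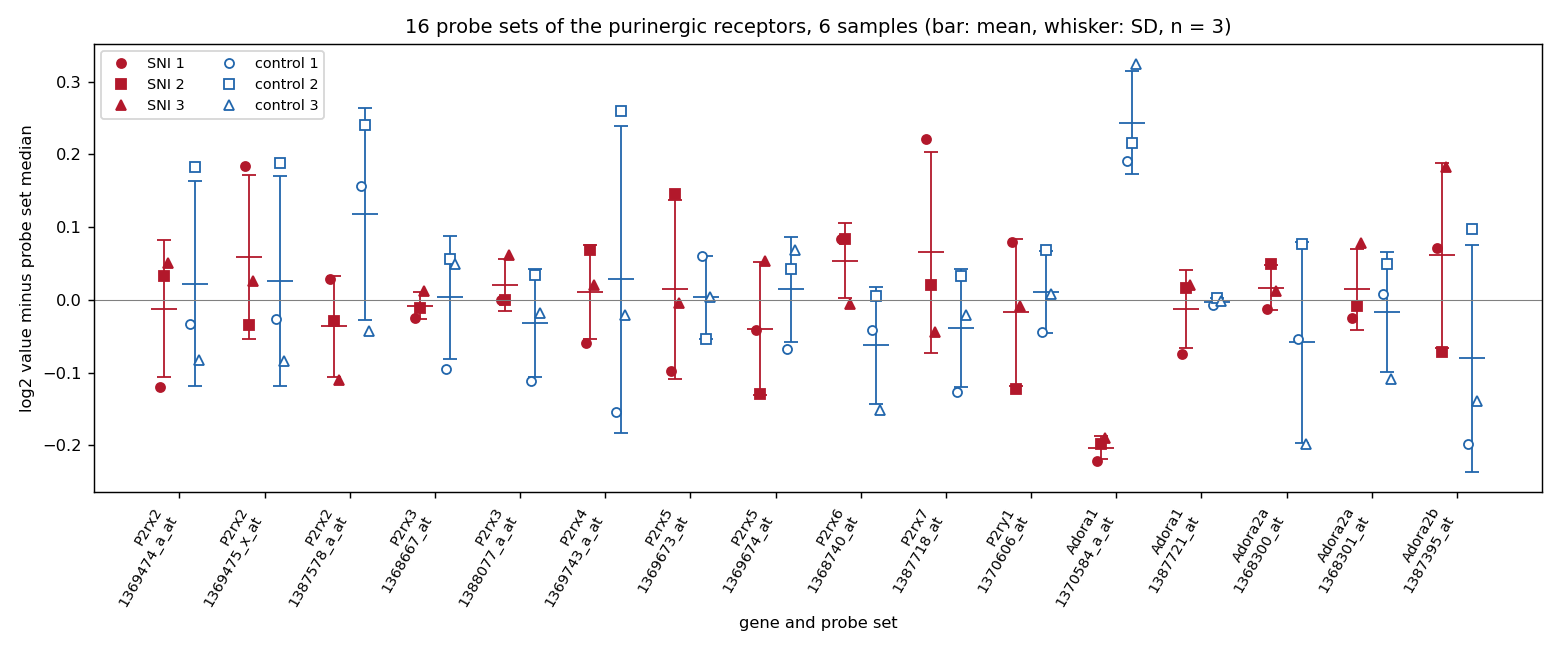
Log2 value relative to the probe set median (y axis) for the 16 probe sets of the receptors (x axis) in every sample. Filled red symbols are the 3 SNI samples and open blue symbols the 3 control samples, each bar stands for the mean and each whisker for the SD. The groups are apart for Adora1 on 1370584_a_at, with −0.22 to −0.19 in the SNI samples and 0.19 to 0.32 in the control samples, and overlap on the other 15 probe sets.

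Of the adenosine receptors, Adora1 is read by the probe sets 1370584_a_at and 1387721_at. On 1370584_a_at, whose suffix marks probes shared by several transcripts of 1 gene, SNI samples 1, 2 and 3 were at −0.22, −0.20 and −0.19, and control samples 1, 2 and 3 at 0.19, 0.22 and 0.32. Every SNI sample lay under every control sample, and the SNI samples lay close together. This probe set averaged −0.20 ± 0.016 in SNI samples, against 0.24 ± 0.071 in control samples (SD, n = 3 each). The difference was −0.45 (SE 0.063, 95% confidence interval −0.59 to −0.30, limma unadjusted p = 9.56e-05, adjusted p = 0.0705), a linear ratio of 0.734, and 0.129% of all probe sets had a p as small. An exact permutation test of the 6 values gave a two-sided p = 0.1, the smallest that 3 against 3 samples allow. In bulk tissue fewer cells of a type and less RNA per cell cannot be told apart. The probe set passed with quantile normalization repeated on the centred values (adjusted p = 0.0454) and with array weights (adjusted p = 0.0176). It also passed with the 25% of probe sets of smallest SD left out (adjusted p = 0.0246). It did not pass in the other 11 alternatives that were run, where the adjusted p was up to 0.577. Its difference lay between −0.48 and −0.33, with an unadjusted p under 0.05, in all 14.

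On the second probe set of Adora1, 1387721_at, the SNI samples were at −0.074, 0.016 and 0.021, and the control samples at −0.0072, 0.0019 and −0.0019. The groups overlapped, and the difference was −0.0098 (SE 0.059, 95% confidence interval −0.15 to 0.13, limma adjusted p = 0.972). The intervals of the 2 probe sets did not meet. Within each array, the first probe set minus the second was −0.15, −0.21 and −0.21 in the SNI samples, against 0.20, 0.21 and 0.33 in the control samples, so the gap differed by −0.44 without overlap. Nearly all of this −0.44 is the difference of the first probe set, as the second differed by −0.0098. The exact permutation p was 0.1, the smallest that 3 against 3 samples allow. It was 0.233 after Benjamini-Hochberg adjustment over the 7 pairs of probe sets that share a receptor gene, and could not fall under 0.1. Of the 3061 genes with exactly 2 probe sets, 1.6% had differences as far apart as those of Adora1, and the median gap was 0.10.

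The mean of both probe sets averaged −0.11 ± 0.035 in SNI samples, against 0.12 ± 0.036 in control samples (SD, n = 3 each). It differed by −0.23 (SE 0.053, 95% confidence interval −0.35 to −0.11, limma unadjusted p = 0.00255, adjusted p = 0.1998 over all genes), and its groups did not overlap. When the mean of the hybridization controls entered the fit as a covariate, the gene mean differed by −0.13 (SE 0.12, limma unadjusted p = 0.286). The SE without the covariate was 0.053. This covariate did not overlap between the groups, so with 6 samples the fit can hardly tell it apart from the group. The annotation used here does not say which transcripts each probe set reads. Nor can it be read from centred values whether 1387721_at was above background, so its small difference does not show that its target was equal in both groups.

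**Figure D2:**
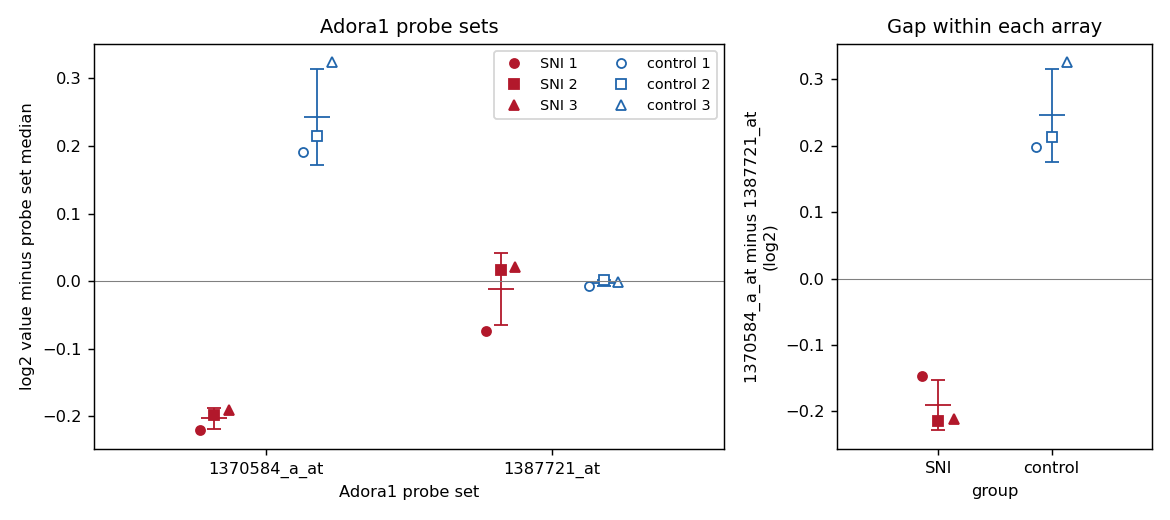
Left, log2 value relative to the probe set median (y axis) on both probe sets of Adora1 (x axis). Right, the first probe set minus the second within each array (y axis, log2) for the SNI and the control group (x axis). Filled red symbols are SNI samples and open blue symbols control samples, with the mean and the SD of 3 samples. The gap is −0.21 to −0.15 in the SNI samples and 0.20 to 0.33 in the control samples.

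RefSeq (GRCr8) gives a promoter window, 250 bases before to 50 after the start of transcription, for 7 of the 10 receptor genes, in 8 windows. Those of Adora1, the receptor with the largest difference, and of Adora2b, the one with the largest positive difference, are shown 5′ to 3′ to set a window without a match beside the one with the most. The motifs searched on both strands were the Egr site GCGNGGGCG, bound by zinc finger factors that neurons induce on activity, the GC box GGGCGG, the cAMP response element TGACGTCA and the TATA box TATAAA. Capitals mark matches, and an Egr site can share bases with a GC box.
Adora1, chr13:48246782-48247081, minus strand: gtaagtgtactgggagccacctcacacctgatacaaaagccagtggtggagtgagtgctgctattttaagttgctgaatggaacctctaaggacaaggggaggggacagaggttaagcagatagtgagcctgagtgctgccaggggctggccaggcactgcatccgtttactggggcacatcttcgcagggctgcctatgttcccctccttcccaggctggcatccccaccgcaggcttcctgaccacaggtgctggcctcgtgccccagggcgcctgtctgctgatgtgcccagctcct
Adora2b, chr10:47439462-47439761, plus strand: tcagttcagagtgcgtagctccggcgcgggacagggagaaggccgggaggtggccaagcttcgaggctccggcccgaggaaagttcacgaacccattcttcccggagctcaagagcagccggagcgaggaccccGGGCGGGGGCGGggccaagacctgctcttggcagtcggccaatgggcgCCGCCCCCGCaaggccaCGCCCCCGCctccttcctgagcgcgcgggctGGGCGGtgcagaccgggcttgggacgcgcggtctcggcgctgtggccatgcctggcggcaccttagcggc
The Adora1 window held none of the 4 motifs. The Adora2b window held 3 Egr sites and 4 GC boxes and was the only one of the 8 with an Egr site, which 4.98% of all 33469 windows held. A GC box stood in 4 of the 8 windows, beside 33.1% of all windows. A cAMP response element (1.83% of all windows) and a TATA box (14.2%) stood in 0 of the 8. A match is a run of letters, and nothing was measured at these places.

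Adora2a and Adora2b encode the adenosine receptors that couple to stimulatory G proteins. Adora2b, a receptor of low affinity for adenosine, had the largest positive difference of the 10 genes. Its probe set 1387395_at was at 0.071, −0.071 and 0.18 in the SNI samples and at −0.20, 0.097 and −0.14 in the control samples. Control sample 2 lay above SNI samples 1 and 2, and the groups overlapped. The difference was 0.14 (SE 0.099, 95% confidence interval −0.086 to 0.37, limma adjusted p = 0.615). With single samples left out it lay between 0.080 without SNI sample 3 (limma unadjusted p = 0.489) and 0.23 without control sample 2 (limma unadjusted p = 0.0300, adjusted p = 0.189), and it was 0.082 without control sample 1.

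Adora2a is known above all from striatal neurons that project to the globus pallidus. On 1368300_at it was at −0.012, 0.049 and 0.012 in the SNI samples and at −0.054, 0.077 and −0.20 in the control samples. On 1368301_at it was at −0.025, −0.0086 and 0.078 in the SNI samples and at 0.0086, 0.050 and −0.11 in the control samples. The groups overlapped on both, and control sample 3 was the lowest on each. The differences were 0.075 (SE 0.080) and 0.031 (SE 0.068), and the gene mean differed by 0.053 (SE 0.067, 95% confidence interval −0.10 to 0.21, limma adjusted p = 0.787). Without control sample 3 the gene mean differed by −0.0048.

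The mean of the markers of striatal projection neurons lay on the other side, but single markers were mixed. Of 13 measured, 3 (Penk, Tac1 and Ppp1r1b) were lower at an unadjusted p under 0.05 and 0 higher, beside 9.19% and 3.96% of all genes. A difference above 0 was seen for 4 of the 13, the largest for Gng7 at 0.15 (SE 0.11). The list mean was −0.057 to −0.012 in the SNI samples and 0.053 to 0.12 in the control samples. Penk, which had the smallest p of the list, differed by −0.40 (SE 0.056), and Tac1, a tachykinin precursor, by −0.50 (SE 0.085). Drd2, the dopamine receptor of the neurons that carry Adora2a, differed by 0.022 (SE 0.087). The part of such tissue in the Adora2a values was not tested.

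Among the P2X channels, P2rx4 and P2rx7 are the pair linked to microglia. P2rx4 has 1 probe set, 1369743_a_at, which was at −0.059, 0.069 and 0.021 in the SNI samples and at −0.15, 0.26 and −0.021 in the control samples. The lowest and the highest of the 6 samples were both in the control group. P2rx4 averaged 0.010 ± 0.065 in SNI samples, against 0.028 ± 0.21 in control samples (SD, n = 3 each). The difference was −0.018 (SE 0.11, 95% confidence interval −0.26 to 0.22, limma adjusted p = 0.971). Its sign rested on single samples, at −0.11 without control sample 1, 0.098 without control sample 2 and 0.017 without SNI sample 1. In the fit that holds the hybridization controls constant P2rx4 was at 0.33 (limma unadjusted p = 0.139).

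P2rx7, a channel that opens at high ATP, was at 0.22, 0.021 and −0.045 in the SNI samples and at −0.13, 0.032 and −0.021 in the control samples on 1387718_at. Of the SNI samples, number 1 alone lay above all control samples. The difference was 0.10 (SE 0.085, 95% confidence interval −0.093 to 0.30, limma adjusted p = 0.677). It was 0.026 without SNI sample 1 and 0.16 without SNI sample 3.

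Markers of microglia lay higher in the SNI group beside these receptors. Of 14 measured, 9 were higher at an unadjusted p under 0.05 and 0 lower, beside 3.96% and 9.19% of all genes, and 0 passed adjustment over all genes. The mean of the list was 0.050 to 0.17 in the SNI samples and −0.16 to −0.059 in the control samples, without overlap. Some markers of other cell types were also higher. Of 5 markers of oligodendrocyte precursors 2 were higher and 0 lower at that threshold, with a list mean of 0.046 to 0.13 in the SNI samples and −0.10 to −0.058 in the control samples. Also higher at that threshold were 2 of 10 endothelial markers, whose list means overlapped, at −0.0051 to 0.051 in the SNI samples and −0.14 to 0.028 in the control samples, and 2 of 6 blood cell markers, at 0.030 to 0.21 in the SNI samples and −0.20 to −0.0089 in the control samples. P2ry12, the ADP receptor of resting microglia and one of the microglia markers, was at 0.27, 0.096 and 0.18 in the SNI samples and at −0.13, −0.10 and −0.41 in the control samples. Its groups did not overlap, and its difference was 0.39 (SE 0.092, 95% confidence interval 0.18 to 0.61, limma adjusted p = 0.201). Whether P2ry12 differed more than P2rx4 or P2rx7 was not tested, nor was the part of any of these cell types in the values of these receptors.

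**Figure D3:**
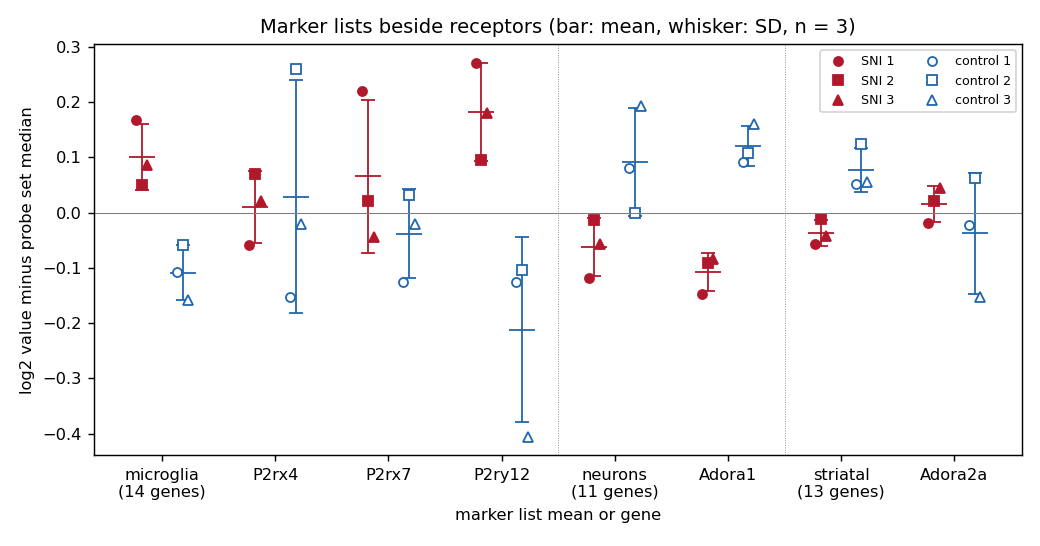
Log2 value relative to the probe set median (y axis) of marker list means and of genes (x axis), with microglia markers beside P2rx4, P2rx7 and P2ry12, neuron markers beside Adora1, and markers of striatal projection neurons beside Adora2a. Filled red symbols are the 3 SNI samples and open blue symbols the 3 control samples, with the mean and the SD. The microglia list is at 0.050 to 0.17 in the SNI samples and −0.16 to −0.059 in the control samples, while the groups of P2rx4 overlap.

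Neuron markers lay on the same side as Adora1. Of 11 measured, 2 (Syt1 and Snap25, both of the machinery that releases synaptic vesicles) were lower at an unadjusted p under 0.05 and 0 higher, beside 9.19% and 3.96% of all genes. The mean of the list was −0.12 to −0.013 in the SNI samples and −0.00071 to 0.19 in the control samples. Syt1 differed by −0.38 (SE 0.079), with a limma adjusted p of 0.189. The part of neurons in the Adora1 values was not tested.

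P2rx2 and P2rx3 form the ATP channels of sensory neurons. P2rx2 is read by 3 probe sets. On 1369474_a_at it was at −0.12, 0.033 and 0.051 in the SNI samples and at −0.033, 0.18 and −0.083 in the control samples. On 1369475_x_at, whose suffix marks probes that may bind other transcripts, it was at 0.18, −0.035 and 0.027 in the SNI samples and at −0.027, 0.19 and −0.084 in the control samples. On 1387578_a_at it was at 0.029, −0.029 and −0.11 in the SNI samples and at 0.16, 0.24 and −0.042 in the control samples. Control sample 2 was the highest of the 6 on each, and the groups overlapped on all 3. The differences were −0.034 (SE 0.088), 0.033 (SE 0.093) and −0.15 (SE 0.086), and the gene mean differed by −0.052 (SE 0.075, 95% confidence interval −0.23 to 0.12, limma adjusted p = 0.819). The last probe set was at −0.24 without control sample 3 (limma unadjusted p = 0.0175, adjusted p = 0.378) and at −0.094 without control sample 2 (limma unadjusted p = 0.288).

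P2rx3 was at −0.025, −0.012 and 0.012 in the SNI samples and at −0.095, 0.056 and 0.049 in the control samples on 1368667_at. On 1388077_a_at it was at 0, 0 and 0.062 in the SNI samples and at −0.11, 0.034 and −0.017 in the control samples. The SNI samples lay in a narrower band than the control samples on both, and the groups overlapped. The differences were −0.012 (SE 0.066) and 0.053 (SE 0.065), and the gene mean differed by 0.020 (SE 0.059, 95% confidence interval −0.12 to 0.16, limma adjusted p = 0.92).

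P2rx5 and P2rx6 are less studied channels, and P2rx6 is known mainly as a partner of other P2X subunits. P2rx5 was at −0.098, 0.15 and −0.0045 in the SNI samples and at 0.060, −0.054 and 0.0045 in the control samples on 1369673_at. On 1369674_at it was at −0.042, −0.13 and 0.053 in the SNI samples and at −0.067, 0.042 and 0.069 in the control samples. Over the 6 samples its probe sets ran against each other (Pearson r −0.599), and SNI sample 2 was the highest on one and the lowest on the other. The gene mean differed by −0.021 (SE 0.054, 95% confidence interval −0.15 to 0.10, limma adjusted p = 0.907). P2rx6 was at 0.084, 0.083 and −0.0058 in the SNI samples and at −0.042, 0.0058 and −0.15 in the control samples on 1368740_at. SNI samples 1 and 2 lay above all control samples, and SNI sample 3 under control sample 2. The difference was 0.12 (SE 0.068, 95% confidence interval −0.039 to 0.27, limma adjusted p = 0.528), the next largest positive one after Adora2b. In the gene fit P2rx6 was at 0.072 without control sample 3 (limma unadjusted p = 0.293) and at 0.15 without control sample 2 (limma unadjusted p = 0.0443, adjusted p = 0.205), where the probe set fit gave an unadjusted p of 0.0597. It was at 0.054 with the covariate.

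P2ry1, which activates phospholipase C through Gq proteins when ADP binds, was at 0.080, −0.12 and −0.0083 in the SNI samples and at −0.044, 0.068 and 0.0083 in the control samples on 1370606_at. The highest and the lowest sample were both in the SNI group. The difference was −0.028 (SE 0.073, 95% confidence interval −0.20 to 0.14, limma adjusted p = 0.919). It was 0.025 without SNI sample 2 and 0.00075 without control sample 2.

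**Figure D4:**
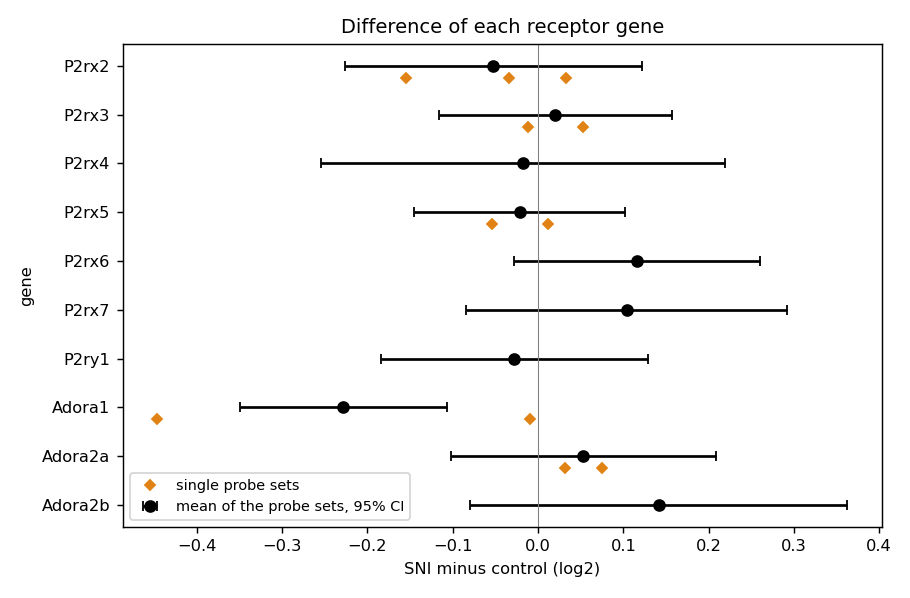
Difference of SNI minus control on the log2 scale (x axis) for the 10 receptor genes (y axis). Black points are the mean of the probe sets of a gene with the 95% confidence interval of limma, and orange diamonds the single probe sets where a gene has several. The interval of Adora1 (−0.35 to −0.11) leaves out 0, and those of the other 9 genes hold it.

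Over the receptors apart from Adora1, the 95% intervals of the gene means lay between −0.25 and 0.36, so these arrays leave differences of up to that size undecided. Control sample 2 was the highest of the 6 on 6 of the 16 probe sets and the lowest on 0, while control sample 1 was the lowest on 5 and the highest on 0. The probe sets of P2rx2 are among those where control sample 2 was highest. How often this holds over all probe sets was not counted, so it is not a trait of the receptors. The SD was larger in the control group for 11 of the 16 (68.8%), beside 70.1% of all probe sets. Its median over the 16 was 0.067 in the SNI group, against 0.081 in the control group.

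The rest of the pathway was described by gene lists, each gene as the mean of its probe sets, and none of the listed genes passed adjustment over all genes. Of 7 other genes with P2 receptor names, 1 (P2ry12) was higher at an unadjusted p under 0.05 and 0 lower. Of all genes, 3.96% were higher and 9.19% lower. No adenosine receptor was measured in this list, as Adora3 was left out for its annotation. All 7 had a difference above 0 (45.2% of all genes did), from 0.0084 for P2ry10 to 0.39 for P2ry12, with a median of 0.055. P2ry6, a UDP receptor of microglia, differed by 0.088 (SE 0.050, limma unadjusted p = 0.118, adjusted p = 0.504). Every SNI sample lay above every control sample, and 20.1% of all genes had groups without overlap in either direction.

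Of 8 genes of nucleotide release, 1 was higher at that threshold and 0 lower, beside 3.96% and 9.19% of all genes. The higher gene was Lrrc8a, a subunit of volume-regulated anion channels, at 0.23 (SE 0.094), with every SNI sample above every control sample. Panx1, a pannexin channel for ATP, was at −0.013 (SE 0.057). Of the 13 enzymes of nucleotide breakdown 0 had an unadjusted p under 0.05, beside 13.2% of all genes, and their median was 0.0058. They include Entpd1, which degrades ATP and ADP, at −0.14 (SE 0.071), and Nt5e, which makes adenosine from AMP, at −0.046 (SE 0.069). The smallest p was that of Entpd8, a further nucleotide hydrolase, at 0.13 (limma unadjusted p = 0.0817).

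Of 15 genes of adenosine uptake and metabolism, 2 were higher and 2 lower at an unadjusted p under 0.05, beside 3.96% and 9.19% of all genes. Slc28a2, a nucleoside transporter, differed by 0.45 (SE 0.14) with overlapping groups, and Pnp, purine nucleoside phosphorylase, by 0.24 (SE 0.071) without overlap. Ahcy, which releases adenosine from S-adenosylhomocysteine, differed by −0.22 (SE 0.060), and Hprt1, an enzyme of purine salvage, by −0.19 (SE 0.055), both without overlap. Adk, the kinase that turns adenosine into AMP, was at −0.071 (SE 0.051).

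Of 14 genes of G proteins and phospholipase C beta, 4 were lower at an unadjusted p under 0.05 and 0 higher, beside 9.19% and 3.96% of all genes, and the median was −0.082, beside −0.011 over all genes. Gnai1 and Gnao1 encode subunits of the inhibitory class, to which the Adora1 receptor couples. Gnai1 was at −0.022, −0.11 and −0.087 in the SNI samples and at 0.35, 0.022 and 0.41 in the control samples. Gnao1 was at −0.092, −0.034 and −0.085 in the SNI samples and at 0.12, 0.034 and 0.10 in the control samples. For both, every SNI sample lay under every control sample, and control sample 2 was nearest to the SNI samples. The differences were −0.33 (SE 0.10, limma adjusted p = 0.245) and −0.16 (SE 0.054, limma adjusted p = 0.291). Gnaq, the Gq subunit that P2ry1 uses, differed by −0.21 (SE 0.071) without overlap, and Gna14, of the same class, by −0.47 (SE 0.20) with overlapping groups. Gnai2, a further inhibitory subunit, lay the other way at 0.11 (SE 0.056), with a limma unadjusted p of 0.0753. The count of 4 was 1 without SNI sample 1 and without SNI sample 3, and 2 without control sample 1 and without control sample 3.

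Of 12 genes tied to P2rx4 and P2rx7 in microglia, 2 were higher at that threshold and 0 lower, beside 3.96% and 9.19% of all genes. They were P2ry12, which is also among the other P2 receptors and the microglia markers, and Irf8, a transcription factor that drives P2rx4 in spinal microglia after nerve injury, at 0.19 (SE 0.077, limma adjusted p = 0.36). Irf5, also in this list, was at 0.034 (SE 0.11) with overlapping groups. Il1b, the cytokine released after P2rx7 opens, was at 0.00061 (SE 0.064), and Casp1, the enzyme that cleaves it, at −0.060 (SE 0.076). Bdnf, which spinal microglia release on P2rx4 activation, was at −0.085 (SE 0.070).

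**Figure D5:**
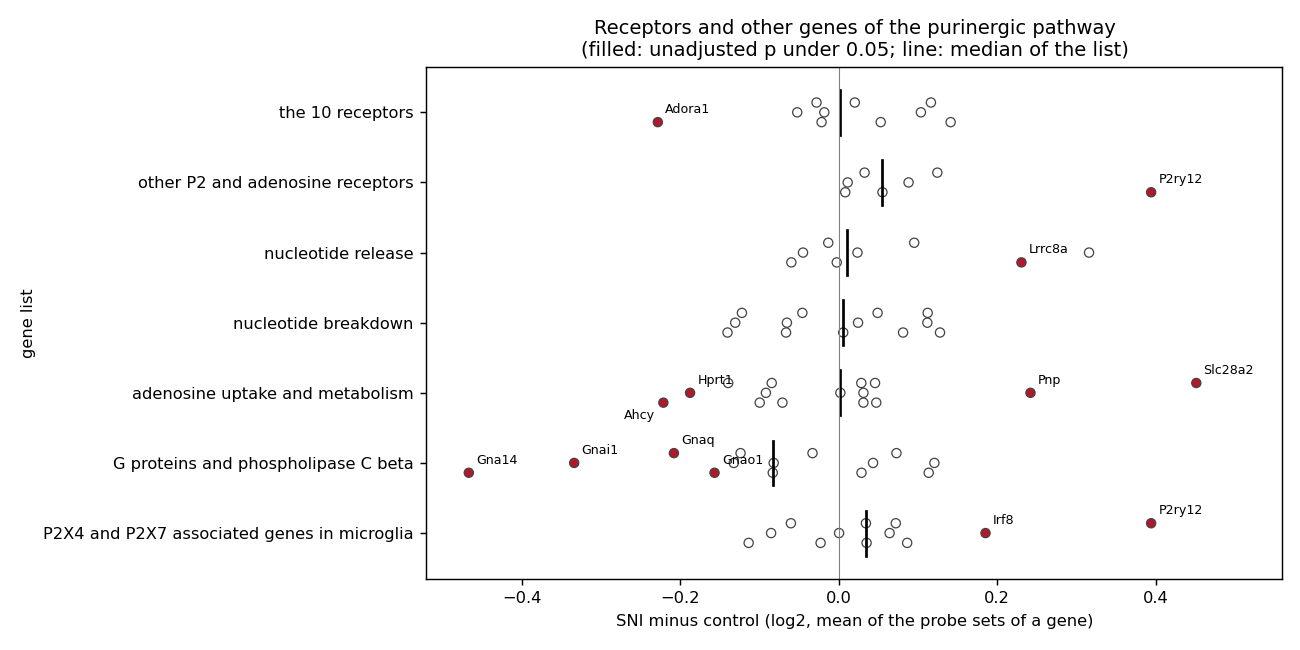
Difference of SNI minus control on the log2 scale (x axis) for each gene of the receptors and of 6 lists of the purinergic pathway (y axis). Each point is 1 gene, filled red where the unadjusted p was under 0.05 and open otherwise, and the black line is the median of the list. Gna14 lies lowest at −0.47 and Slc28a2 highest at 0.45, and the line of the G protein list is at −0.082.

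The gene most like each receptor over the 6 samples, by Pearson r of the gene means, was Bnip3 for Adora1 (r 0.998, rho 0.886), Atp9a for Adora2a (r 0.997, rho 0.943) and Art4 for Adora2b (r 0.996, rho 0.943). Among the P2X channels it was Fgf10 for P2rx2 (r 0.994, rho 0.886), Rcan3 for P2rx3 (r 0.991, rho 1), Slc23a3 for P2rx4 (r 0.999, rho 1), Tmem231 for P2rx5 (r 0.992, rho 1), Celf5 for P2rx6 (r 0.988, rho 1) and Ighvl1 for P2rx7 (r 0.984, rho 0.943). Slit3 was most like P2ry1 (r 0.994, rho 0.943). These are descriptions over 6 arrays that all share the same groups, chosen among 14217 genes. Between 10 genes, for P2rx5, and 194, for Adora1, had an r over 0.95 with a receptor.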

How the data were processed

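The arrays measured mRNA in the PL in 3 SNI samples and 3 control samples. The authors applied RMA, log2 transformation and quantile normalization to Affymetrix rat genome arrays, and they compared the groups on the arrays with limma. The methods' t-test below is the unpaired t-test of their general statistics section. Every probe set of the deposited log2 values also has a median of 0 over the 6 samples (within 4.78e-07), a step the sources used here do not describe, and which allows no filter on dim probe sets. Software versions are not given there.

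After 57 array controls were left out, 31042 probe sets were fitted with limma 3.58.1 in R 4.3.3 (lmFit, eBayes, SNI minus control, no covariate, two-sided tests), and p-values were adjusted over all of them by Benjamini-Hochberg. Means of all probe sets with 1 symbol alone gave 14217 genes, fitted likewise. A gene with 1 probe set has slightly different errors in each fit. For receptors read by 1 probe set the text gives those of the probe set unless stated, and for other genes those of the gene fit. Symbols came from the platform annotation, and all 10 receptors matched RefSeq by gene ID. Plots used Python 3.11.15 and matplotlib 3.10.9. The fit was tested on simulated data with independent noise and planted effects larger than any receptor difference here. That run checked the code and does not show how well differences of the receptors' size would be found.

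The receptors and gene lists were chosen with earlier results of these data known. Named were all receptors, listed genes with an unadjusted p under 0.05 or else the smallest p, the most similar gene, and markers of cell types that share a receptor. Panx1, Entpd1, Nt5e, Adk, P2ry6, P2ry10, Gnai2, Il1b, Casp1, Bdnf, Irf5, Drd2 and Gng7 were named after their values were seen. Alternatives were repeated quantile normalization, aligned medians, the methods' t-test, robust variances, array weights, the 18 hybridization controls as a covariate, the replicate number as a block, leaving out the 25% of probe sets with the smallest SD, the median of probe sets, other thresholds, and each sample left out. Quantile normalization was repeated on the centred values as deposited, not on intensities. The number of arrays limits the precision.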

Additional observations from a re-analysis of the deposited data

How the results depend on the processing

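Adora1 on 1370584_a_at kept its direction in all 14 alternatives, and it passed adjustment with quantile normalization repeated (−0.46), array weights (−0.48) and the 25% of probe sets with the smallest SD left out (−0.45). The gene mean of Adora1 kept its direction in all 15, with an adjusted p under 0.05 in none and an unadjusted p under 0.05 in 14. With the covariate its limma unadjusted p was 0.286. As the groups do not overlap on either, leaving out or weighting samples could not turn the direction. The t-test, robust variances, the replicate block and the SD filter leave the difference itself unchanged. The kept direction in those alternatives is therefore no separate evidence. Once the group means were taken out, same-numbered samples were not clearly correlated over all probe sets (0.0085, −0.0098 and −0.069). No pairing by replicate number was seen, though 3 such values cannot show that there was none. With the replicate block the adjusted p of 1370584_a_at was 0.132, its difference stayed at −0.45, and 9 probe sets of the series passed. The cause of the changes below was not tested.

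Over all probe sets, 10 passed an adjusted p of 0.05 as reported. The count was 66 with repeated quantile normalization, 0 with the methods' t-test (where 3724 had an unadjusted p under 0.05), 792 with array weights, 291 with the SD filter, and 0 to 35 with a sample left out (0 without SNI sample 3, 35 without control sample 2). The 4055 past an unadjusted p of 0.05 became 6649 with array weights, 2660 with the covariate, and 2644 to 6630 with the same samples left out. The member probe sets past that threshold, 1 in all, were 3 with array weights, 0 with a fold change above 1.5 in addition, and 1 to 2 with a sample left out (2 without control sample 2 and without control sample 3). The member genes, 1 in all, were 3 with array weights (Adora1, P2rx6 and Adora2b), 0 with the covariate and 1 to 3 with a sample left out, the 3 being reached without control sample 2.

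For the lists, counts at an unadjusted p of 0.05 moved as follows. The other P2 receptors (1) had 2 with the methods' t-test, 0 with the covariate and 1 to 2 with a sample left out. Nucleotide release (1) had 0 with the t-test and with the covariate, 2 with array weights and with the SD filter, and 0 to 1 with a sample left out. Nucleotide breakdown (0) had 2 with array weights, 1 with the covariate and 0 to 1 with a sample left out. Adenosine uptake and metabolism (4) had 2 with the covariate and 3 to 5 with a sample left out. G proteins (4) had 6 with array weights, 3 with the replicate block and with the SD filter, 1 with the covariate and 1 to 4 with a sample left out. The genes tied to P2rx4 and P2rx7 (2) had 1 with the t-test, array weights, the covariate, the replicate block and the SD filter, and 1 to 2 with a sample left out.

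Differences that changed sign are given here. Those with the covariate come from a fit that can hardly tell the covariate from the group. With array weights the gene means of P2rx2 (0.0081) and P2rx4 (0.027) turned, as did 1369474_a_at (0.040) and 1369743_a_at (0.025). With the covariate the gene means of P2rx4 (0.33) and P2rx5 (0.062) turned, as did 1368667_at (0.16), 1369474_a_at (0.14), 1369475_x_at (−0.061), 1369674_at (0.043), 1369743_a_at (0.33) and 1387721_at (0.064). With a sample left out, gene means ranged from −0.11 to 0.022 for P2rx2, −0.024 to 0.050 for P2rx3, −0.11 to 0.098 for P2rx4, −0.040 to 0.0072 for P2rx5, −0.076 to 0.025 for P2ry1 and −0.0048 to 0.10 for Adora2a. The probe sets that turned ranged from −0.015 to 0.064 (1368301_at), −0.061 to 0.014 (1368667_at), −0.087 to 0.046 (1369474_a_at), −0.030 to 0.11 (1369475_x_at), −0.055 to 0.067 (1369673_at), −0.11 to 0.098 (1369743_a_at), −0.076 to 0.025 (1370606_at) and −0.026 to 0.021 (1387721_at).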

Other observations

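The array carries 2 probe sets for Adora3, a further adenosine receptor, which entered no gene list because the annotation gives each several entries. On 1369272_at, with the symbol Adora3 listed 2 times, Adora3 was at 0.27, −0.062 and 0.039 in the SNI samples and at −0.11, 0.11 and −0.039 in the control samples. On 1385515_at, shared with Tmigd3, it was at −0.22, 0.019 and −0.11 in the SNI samples and at −0.019, 0.076 and 0.042 in the control samples. The groups overlapped on both, and the differences had opposite signs, at 0.092 (SE 0.099, limma adjusted p = 0.757) and −0.13 (SE 0.076, limma adjusted p = 0.516).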
